A study of Mus musculus with 12 samples.

Results

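The genes described here are 39 interferon-stimulated genes, named from knowledge of the interferon response and looked up by symbol in the deposited tables. Members and further lists were chosen with earlier results of these data known, so their counts beside all genes are descriptive. All 39 have a row in both tables, of 54367 rows in each. Poly(A) RNA was sequenced from retinas of wildtype C57BL/6 mice aged 8 to 12 weeks. In each mouse a 532 nm laser placed 4 burns (75 um spots of 0.1 s) in the retina of the right eye. The untreated left eye served as the control, so both eyes carry the same genotype and anaesthesia. Retinas were collected 3 or 7 days later, which gives 4 groups (lasered and control on day 3, lasered and control on day 7) of 3 libraries each, 12 libraries in all. The labels call the material retinal cells and do not say which libraries share a mouse or whether retinas were pooled, so p-values here reflect library-to-library spread only, which may be technical.

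Interferons are signalling proteins that cells release when they sense foreign nucleic acid and other danger signals. Type I interferons bind the receptor of Ifnar1 and Ifnar2, whose Janus kinases activate Stat2 among others. With Irf9 it takes part in the factor ISGF3, which binds the interferon-stimulated response element (ISRE) of target genes. Interferon gamma acts through Ifngr1 and Ifngr2 and the gamma-activated site (GAS). The target genes include the regulators themselves, cytosolic RNA sensors, the IFIT, OAS and ISG15 systems, membrane and nucleotide-based antiviral effectors, and large GTPases that act on pathogen compartments. In the retina, microglia, Müller glia and immune cells that enter from the blood are known to express such genes.

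Promoters of 5 members are shown because they hold the letters through which interferon signalling is known to act and stand for the roles compared below. They are RefSeq sequences of GRCm38.p6, from 250 to 21 bases before the annotated start of the gene, 230 bases each, written 5′ to 3′ on the strand of the gene. Capitals mark the ISRE core (GAAA, any 2 bases and GAAA, or TTTC, any 2 bases and TTTC on the other strand), or, in Irf1, the GAS core (TTC, any 3 bases and GAA, which is the same on both strands).
Isg15 (chr4:156200839-156201068, minus strand): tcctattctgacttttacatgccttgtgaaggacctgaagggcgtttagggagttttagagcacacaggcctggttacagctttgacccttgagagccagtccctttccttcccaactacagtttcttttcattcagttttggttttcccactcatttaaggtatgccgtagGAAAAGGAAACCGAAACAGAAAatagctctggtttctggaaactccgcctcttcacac
Ifit1 (chr19:34640639-34640868, plus strand): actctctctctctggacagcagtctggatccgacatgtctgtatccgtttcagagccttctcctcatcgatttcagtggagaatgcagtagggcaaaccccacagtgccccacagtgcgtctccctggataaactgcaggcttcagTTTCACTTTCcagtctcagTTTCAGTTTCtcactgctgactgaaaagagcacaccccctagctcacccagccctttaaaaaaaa
Bst2 (chr8:71537493-71537722, minus strand): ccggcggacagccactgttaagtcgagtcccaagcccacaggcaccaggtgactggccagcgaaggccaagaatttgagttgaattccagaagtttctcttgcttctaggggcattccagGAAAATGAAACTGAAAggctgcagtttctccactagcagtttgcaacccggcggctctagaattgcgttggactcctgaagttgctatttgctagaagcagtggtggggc
Igtp (chr11:58199306-58199535, plus strand): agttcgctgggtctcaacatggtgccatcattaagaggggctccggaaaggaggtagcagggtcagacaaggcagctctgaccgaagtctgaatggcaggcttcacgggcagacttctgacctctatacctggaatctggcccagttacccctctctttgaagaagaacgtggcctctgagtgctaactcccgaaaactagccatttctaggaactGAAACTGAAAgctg
Irf1 (chr11:53769764-53769993, plus strand): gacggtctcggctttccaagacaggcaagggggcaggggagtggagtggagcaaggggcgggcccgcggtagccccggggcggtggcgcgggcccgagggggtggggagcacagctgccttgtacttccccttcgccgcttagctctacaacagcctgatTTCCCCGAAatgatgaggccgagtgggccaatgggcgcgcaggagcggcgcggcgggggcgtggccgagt

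The RefSeq table held a promoter window of 300 bases (250 before to 50 after the start) for 30 of the 39 members, 6 of them with more than 1 window and counted once. Of these members 19 (63.3%) held the ISRE core on either strand, against 3.99% of all 27025 genes with a window. The GAS core was in 10 members (33.3%, against 9.55%), and 23 members (76.7%, against 12.9%) held at least one of the cores. Isg15, which encodes a ubiquitin-like protein, has 3 overlapping ISRE cores in a run. Ifit1, an RNA-binding antiviral protein, has 2 in the other orientation, and Bst2, which tethers virus particles to the cell surface, has 2 that overlap. Igtp, an immunity-related GTPase, has 1 ISRE core close to the start, and Irf1, a transcription factor, has a GAS core and no ISRE core. Bst2 and Igtp also have 1 GAS core each, which the capitals do not mark, and the GAS core overlaps an ISRE core in 2 members, Bst2 and Ifitm3. A match describes letters in a window and does not show that a factor binds there.

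The deposited values are a per-length signal, so levels of genes can be set side by side within a library. The number of reads recovered from the values ranged between 9281950 and 12515956 in day 3 libraries and between 23885931 and 31092180 in day 7 libraries. A gene with 1 kb of exons and 3 reads has a value of 0.445 to 0.605 on day 3 and of 0.292 to 0.380 on day 7, and these limits cover counting error only. Markers of photoreceptors, Müller glia and retinal neurons were high in every library, with a summed level of 9332 to 27410 on day 3 and of 46410 to 63220 on day 7. Lasered replicate 1 of day 3 stood apart: its sum of 9332 was the lowest of the day, and the other 5 libraries were at 18290 to 27410. Pigment epithelium markers, which enter with the tissue next to the retina, summed to 61.3, 239 and 763 in lasered 1 to 3 of day 3, against 396 to 599 in controls, so the lasered libraries differed in this as well. Limma calls of day 3 are therefore given with and without lasered replicate 1. Log2 differences of single members include it unless stated, and without it mostly the adjusted p is given. The median difference of the 35 tested members was 2.57 with it and 1.57 without.

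On day 3 the interferon-stimulated genes were higher in lasered than in control retinas across all roles. In 38 of 39 members every lasered library exceeded every control library, as did 17.4% of all genes above 0 in at least 1 library. Oas2 was the exception. The median difference over the 39 members was 2.35 on the log2(value + 1) scale, beside 0.07 over all genes above 0. In bulk tissue, more cells of a type and more RNA per cell cannot be told apart.

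The size of the difference varied widely between the lasered retinas. The mean of log2(value + 1) over the 39 members was 1.964, 1.840 and 1.781 in controls 1 to 3, and 5.883, 3.389 and 3.483 in lasered 1 to 3. Lasered replicate 1 therefore lay 4.02 above the control mean, while lasered replicates 2 and 3 lay 1.53 and 1.62 above it. The mean over all genes tested lay 0.30, 0.19 and 0.19 above that of the controls. Lasered replicate 1 was the highest of the lasered libraries in 39 of 39 members, as in 46.6% of all genes tested. Its value was a median of 7.30 times the mean of the other lasered libraries over the members (from 2.34 for Cmpk2 to 13.1 for Ifi44), beside 1.06 over all genes tested.

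**Figure D1:**
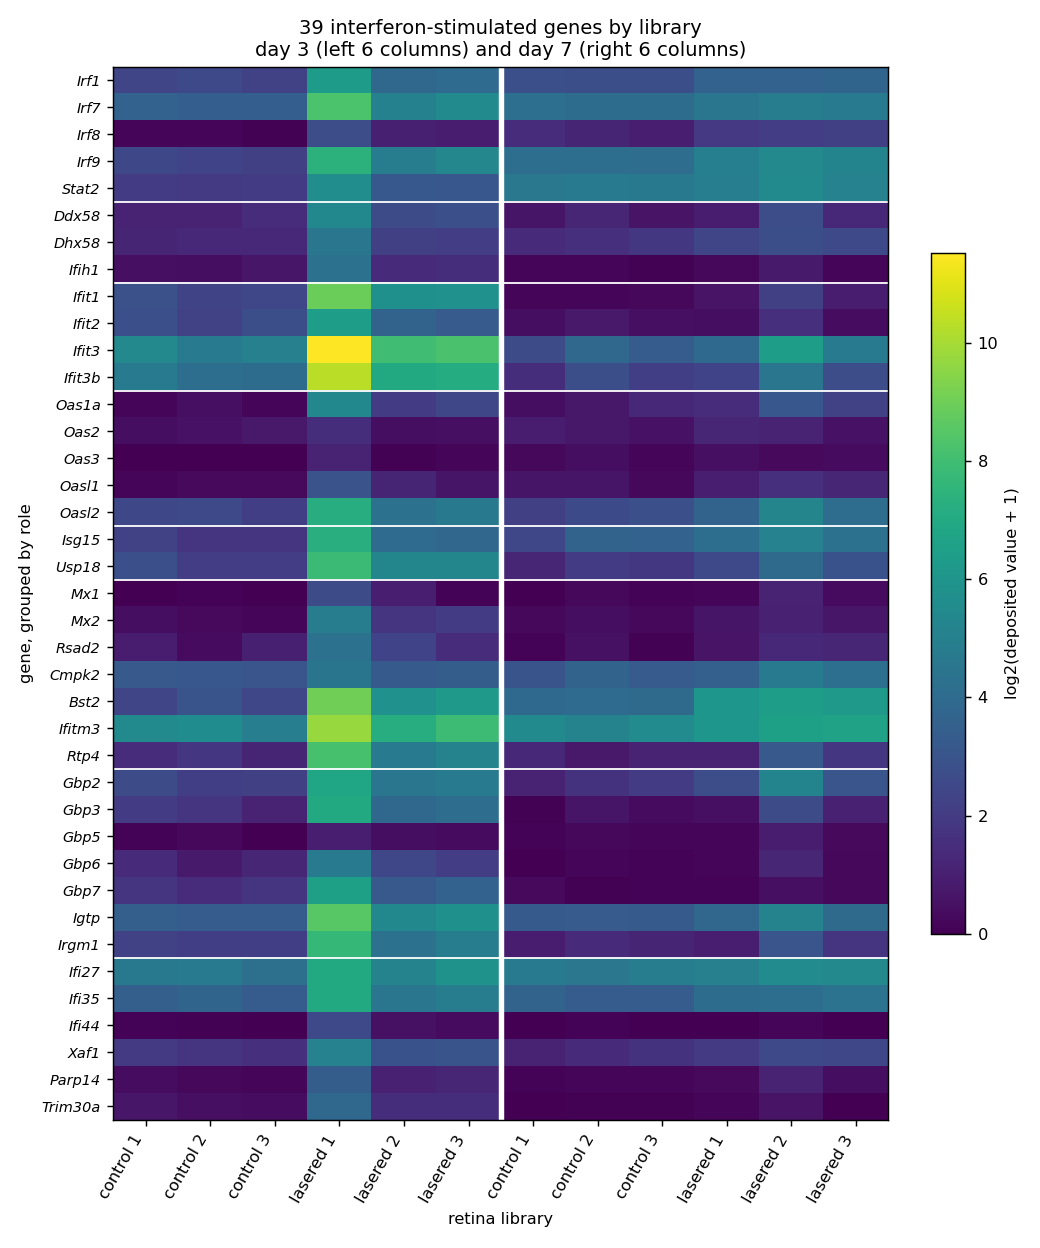
Heat map of log2(deposited value + 1) for the 39 interferon-stimulated genes (rows, grouped by role with white lines) in the 12 retina libraries (columns, day 3 left of the white bar and day 7 right of it). The brightest column is lasered replicate 1 of day 3, and Ifit3 reaches the highest value there.

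**Figure D2:**
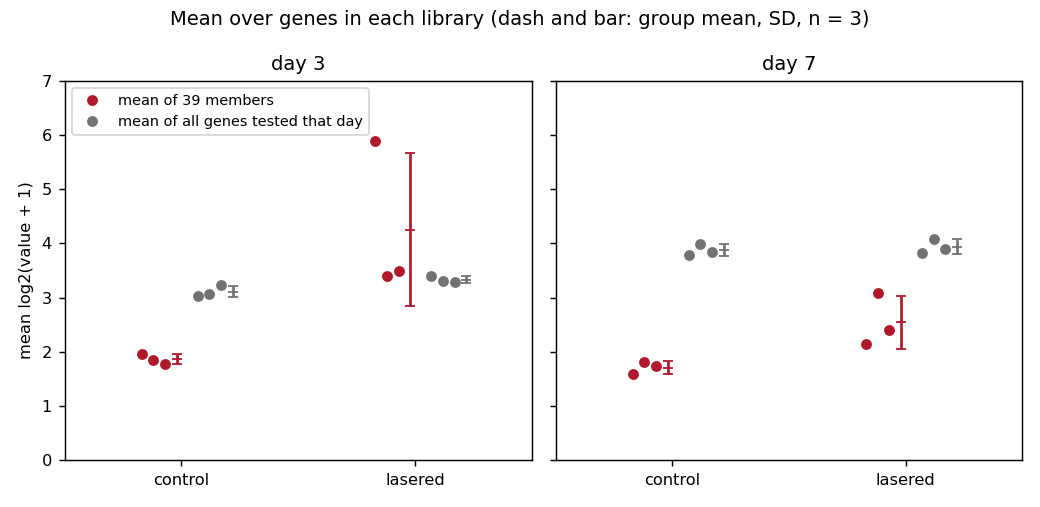
Mean of log2(value + 1) over the 39 members (red) and over all genes tested that day (grey) in each library, with the group mean and SD (dash and bar, n = 3). On day 3 lasered replicate 1 is at 5.883 and the others at 3.389 and 3.483, all above the controls at 1.781 to 1.964.

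With limma on the 6 libraries of day 3 and Benjamini-Hochberg adjustment over all 16786 genes tested, 0 of the 35 members tested passed an adjusted p of 0.05 (smallest adjusted p = 0.0883), where 0.143% of all genes passed as higher. At an unadjusted p under 0.05, 33 members were higher, as were 20.7% of all genes, and a voom fit of the recovered reads also called 0. Without lasered replicate 1, limma called 23 members as higher, beside 1.79% of all genes, with a median difference of 1.57 over the 35 tested. Of the 26 tested members with a control mean of at least 1, 21 were called without it, with a median of 2.04. A joint fit of the 12 libraries, which shares one estimate of the spread across both days, called the same 23 and Ifi27, 24 in all, beside 6.58% of all genes. A fit that weights libraries by their scatter called 12 members, beside 2.16% of all genes. Of the 35 tested, 9 had a control mean under 1 and passed the filter through the lasered libraries, so they had to be higher there: Irf8, Ifih1, Oas1a, Oasl1, Mx1, Mx2, Rsad2, Parp14 and Trim30a. Oas2, Oas3, Gbp5 and Ifi44 were below the filter.

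Among the regulators, Irf9, the DNA-binding subunit of ISGF3, had values of 4.58, 4.04 and 3.47 in controls and of 168.8, 28.7 and 39.5 in lasered retinas. All lasered values were above all controls (log2 difference 3.56, SE 0.59, limma adjusted p = 0.0883). Irf7, which amplifies type I interferon production, went from 11.5, 10.03 and 9.98 to 304, 32.9 and 44.0. Irf1, a target of interferon gamma and a transcription factor in its own right, went from 4.27, 4.88 and 3.63 to 78.3, 13.6 and 15.3. These 3 genes, with Stat2, a subunit of ISGF3, passed without lasered replicate 1 (adjusted p from 0.00442 for Irf9 to 0.0198 for Stat2). Irf8, a factor of myeloid cells, was at 0.0585 to 0.108 in controls, on 2 to 5 reads, and at 5.68, 1.05 and 0.826 in lasered retinas, on 33 to 198 reads.

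In the cytosolic sensors of viral RNA lasered replicate 1 was again the highest. Ddx58, which encodes RIG-I, went from 1.21, 1.23 and 1.74 in controls to 41.0, 5.46 and 6.07 in lasered retinas (log2 difference 2.39, SE 0.67, limma adjusted p = 0.115). Dhx58, which encodes LGP2, went from 1.26, 1.42 and 1.51 to 21.9, 3.53 and 3.26. Ifih1, which encodes MDA5, went from 0.392, 0.328 and 0.614 to 18.4, 1.68 and 1.87. No lasered value of these sensors reached down to the controls. Only Ddx58 passed without lasered replicate 1 (adjusted p = 0.0150), while Dhx58 and Ifih1 had adjusted p = 0.0600 and 0.0608.

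The IFIT genes encode proteins whose complexes bind foreign 5′ ends of RNA, and Ifit3 reached the highest level of the 39 members. Ifit3 went from 42.4, 26.0 and 31.5 in controls to 2938, 256 and 293.6 in lasered retinas (log2 difference 4.17, SE 0.87, limma adjusted p = 0.0915). Ifit1 went from 6.27, 4.15 and 4.49 to 490.4, 53.7 and 55.0 (log2 difference 4.28, SE 0.80, adjusted p = 0.0883). Both passed without lasered replicate 1, at 3.03 and 3.23 on the log2 scale (adjusted p = 0.00442 and 0.00407). Ifit3b went from 25.3, 16.8 and 16.0 to 1279, 127.6 and 140.6. Of the 50-base stretches of Ifit3, 51.2% also occur in Ifit3b, so the division of reads between these neighbours is uncertain. Ifit2 had the smallest difference of the IFIT genes, from 6.02, 3.88 and 5.89 to 83.5, 11.8 and 8.78, and did not pass without lasered replicate 1 (adjusted p = 0.127).

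In the OAS family, whose active enzymes make the messenger that activates RNase L, the OAS-like gene Oasl2 went from 4.57, 4.82 and 3.46 in controls to 145, 18.8 and 24.6 in lasered retinas. Its log2 difference was 3.00 (SE 0.69, limma adjusted p = 0.0938). Oas1a went from 0.154, 0.394 and 0.106 to 40.3, 3.16 and 4.39, from 1 to 5 reads in each control. As 57.6% of its 50-base stretches occur in Oas1g, the count of Oas1a is uncertain as well. Oasl1 went from 0.117, 0.228 and 0.218 to 6.78, 1.27 and 0.590. Oas2 and Oas3 were too low to test. Oas2 was at 0.346, 0.489 and 0.715 in controls, against 1.85, 0.350 and 0.372 in lasered retinas, and only lasered replicate 1 exceeded the controls. Oas3 had 0 or 1 read in each control and 40, 3 and 6 reads in the lasered libraries.

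The ISG15 system consists here of Isg15 and of Usp18, the protease that removes ISG15 and restrains the type I receptor. Isg15 went from 3.81, 2.45 and 2.35 in controls to 153.3, 15.3 and 12.8 in lasered retinas (log2 difference 3.09, SE 0.86, limma adjusted p = 0.113). Usp18 went from 6.08, 3.33 and 3.33 to 233, 38.0 and 38.7 (log2 difference 3.81, SE 0.67, adjusted p = 0.0883). Neither gene overlapped between the groups, and both passed without lasered replicate 1 (adjusted p = 0.0110 and 0.00564).

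Among the other antiviral effectors, Rtp4, a negative regulator of the interferon response, had the largest fitted difference of the 35 members tested. It went from 1.785, 2.529 and 1.297 in controls to 288.9, 24.7 and 34.4 in lasered retinas (log2 difference 4.504, SE 0.84, limma adjusted p = 0.0883). Bst2 went from 4.27, 6.88 and 4.41 to 511.6, 55.8 and 71.6 (log2 difference 4.40, SE 0.77, adjusted p = 0.0883). Ifitm3, which blocks virus entry at endosomes, was already at 44.2, 48.2 and 29.6 in controls and reached 867, 143 and 238. Groups did not overlap in any of these, and all passed without lasered replicate 1. Cmpk2, a mitochondrial nucleotide kinase, had the smallest difference of the tested members, from 8.44, 7.67 and 7.23 to 21.5, 8.69 and 9.70 (0.60, SE 0.31, adjusted p = 0.297), and 0.22 without lasered replicate 1. Its neighbour Rsad2, which encodes viperin, went from 0.840, 0.279 and 1.05 to 19.5, 4.06 and 1.79. Mx2, of the dynamin-like GTPase family but annotated as a polymorphic pseudogene, went from 0.341, 0.215 and 0.165 to 28.2, 2.43 and 2.95. Mx1, which is known to make no working protein in C57BL/6 mice, had 0, 2 and 0 reads in controls and 93, 25 and 2 in lasered retinas, so its lack of overlap rests on equal reads in control 2 and lasered 3.

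The guanylate-binding proteins and immunity-related GTPases act on membranes that enclose pathogens and are known targets of interferon gamma. Gbp2 went from 5.24, 3.46 and 3.53 in controls to 107, 22.2 and 25.4 in lasered retinas (log2 difference 3.01, SE 0.56, limma adjusted p = 0.0883). Irgm1, which controls the activity of the other immunity-related GTPases, went from 3.91, 3.38 and 3.42 to 204, 19.4 and 27.6. Gbp3 went from 3.09, 2.41 and 1.22 to 128, 13.7 and 16.6. The groups did not overlap in any of the 7 GTPases. Without lasered replicate 1, Gbp2, Gbp3, Gbp7, Igtp and Irgm1 passed, and Gbp6 did not (adjusted p = 0.0879). Of the 50-base stretches of Gbp6, 70.7% occur in another gene, chiefly the predicted gene Gm43302, so its values are uncertain. Gbp5 had the lowest lasered levels of the 7, at 0.929, 0.357 and 0.282.

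The remaining 6 members had differences from 1.08 for Ifi44 to 1.94 for Ifi35. Ifi27, a mitochondrial protein, was high in controls at 24.0, 24.8 and 18.2 and was at 128, 34.4 and 58.1 in lasered retinas (log2 difference 1.49, SE 0.43, limma adjusted p = 0.120). Ifi35 went from 10.1, 12.1 and 9.10 to 126, 21.8 and 27.5, with 16.8% of its exon bases under an antisense gene. Xaf1, which promotes cell death, went from 2.86, 2.32 and 1.95 to 33.2, 6.44 and 6.87. All lasered values were above the controls in these 3 genes, and Ifi35 and Xaf1 passed without lasered replicate 1 (adjusted p = 0.0336 for both).

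**Figure D3:**
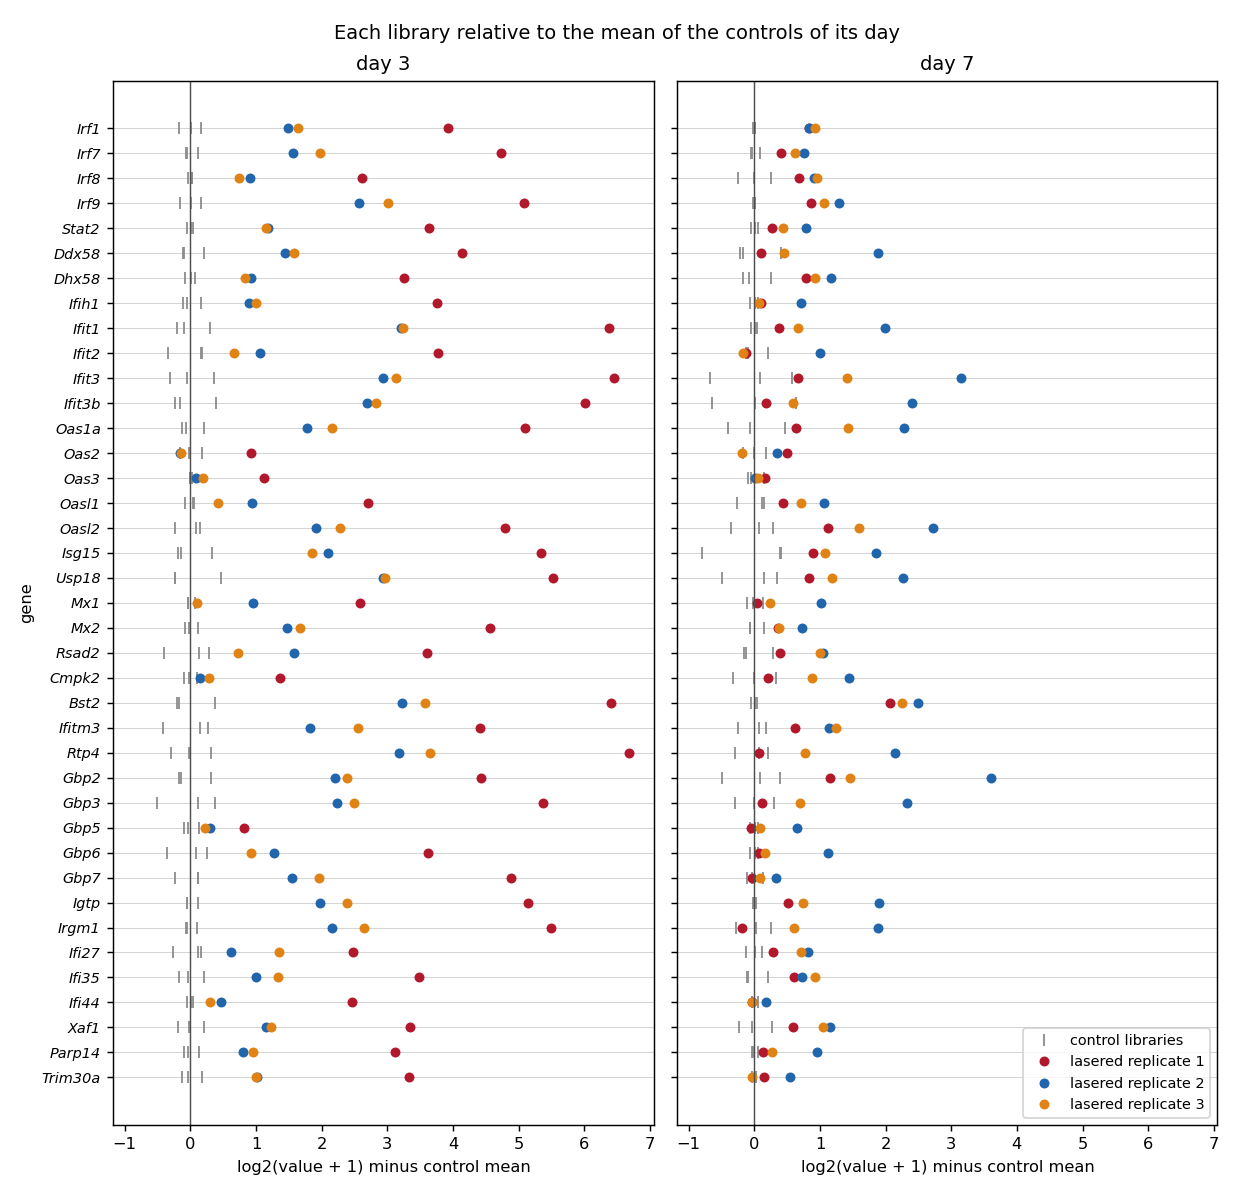
Each library minus the mean of the controls of its day on the log2(value + 1) scale (x axis) for the 39 members (y axis), day 3 left and day 7 right; grey ticks are control libraries and coloured points the lasered replicates. On day 3 lasered replicate 1 lies to the right of the other lasered libraries in all 39 members, and on day 7 lasered replicate 2 is the highest in 33.

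On day 7 most members were again higher in lasered retinas, and Bst2 was the only one that passed the test. In 25 of 39 members every lasered library exceeded every control library, as did 5.59% of all genes above 0. All 25 were also without overlap on day 3. Of the 24 members tested on both days, 18 had no overlap on either day, as had 4.64% of the genes tested on both days. The median difference over the 39 members was 0.82 on the log2(value + 1) scale, beside 0.04 over all genes above 0.

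Limma called 1 of the 24 members tested, where 0.237% of the 15592 genes tested passed as higher. At an unadjusted p under 0.05, 19 members were higher, as were 3.14% of all genes. With library weights 3 members passed, Bst2, Irf9 and Irf1, beside 0.673% of all genes. The other 15 members did not pass the filter on low values: Ifih1, Ifit1, Ifit2, Oas2, Oas3, Oasl1, Mx1, Mx2, Rsad2, Gbp5, Gbp6, Gbp7, Ifi44, Parp14 and Trim30a. Ddx58, Oas1a and Gbp3 passed it with a control mean under 1.

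Bst2 was at 14.1, 15.1 and 14.7 in the controls of day 7 and at 64.4, 87.3 and 73.4 in the lasered retinas. The controls differed by about 1 unit, and each lasered retina stood far above them, for a ratio of means of 5.13. The log2 difference was 2.27 (SE 0.16, limma adjusted p = 0.00444), with adjusted p from 0.000454 to 0.477 over the alternatives. The call was lost without lasered replicate 3 (adjusted p = 0.0653), without control replicate 3 (0.0536) and in the joint fit (0.477), where 0.141% of all genes passed as higher. The difference itself stayed between 2.13 and 2.38 over all alternatives.

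The regulators were the most even group on day 7. Irf9 was at 16.7, 16.7 and 16.4 in controls, against 30.9, 41.8 and 35.7 in lasered retinas (log2 difference 1.07, SE 0.16, limma adjusted p = 0.0831). Irf1 was at 5.94, 5.78 and 5.88 in controls, against 11.3, 11.2 and 12.0 in lasered retinas (0.86, SE 0.18, adjusted p = 0.261). Irf7 was at 17.6, 15.8 and 16.1 in controls, against 22.2, 28.5 and 25.9 in lasered retinas. None of the 5 regulators overlapped between groups, Stat2 and Irf8 included, and the highest lasered library was 1.06 to 1.35 times the mean of the other lasered libraries. Stat2 had the smallest difference of them, 0.50 (SE 0.17, adjusted p = 0.973).

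In the IFIT genes and the GTPases a single library carried most of the difference. Lasered replicate 2 was the highest lasered library in 33 of 39 members, as in 53.3% of all genes tested. Its value relative to the mean of the other lasered libraries had a median of 2.56 over 38 members and of 1.13 over all genes tested. This library also had the lowest sum of retinal markers of the day (46410), though it was the highest lasered library in 6 of these 13 markers. Among them Pax6 was at 34.5, against 13.9 and 18.9 in lasered 1 and 3, and control 2 was likewise at 34.6. The part of such differences in the members was not tested. By role, the median ratio of the highest lasered library to the mean of the others was 5.02 for the IFIT genes, 4.86 for the GTPases and 1.19 for the regulators. It was 1.76 for the other antiviral effectors and 1.32 for the group of Ifi27, Ifi35 and Xaf1. Ifit3 was at 5.11, 13.6 and 9.37 in controls, against 14.4, 84.9 and 25.0 in lasered retinas (log2 difference 1.74, SE 0.62, limma adjusted p = 1.000). Gbp2 was at 1.14, 2.20 and 2.95 in controls, against 5.70, 35.6 and 7.28 in lasered retinas (2.08, SE 0.63, adjusted p = 0.777). The groups did not overlap in either gene, but in Ifit3 the lowest lasered library was close to the highest control (14.4 and 13.6). Irgm1 overlapped, with 0.840, 1.66 and 1.26 in controls and 0.951, 7.19 and 2.39 in lasered retinas.

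**Figure D4:**
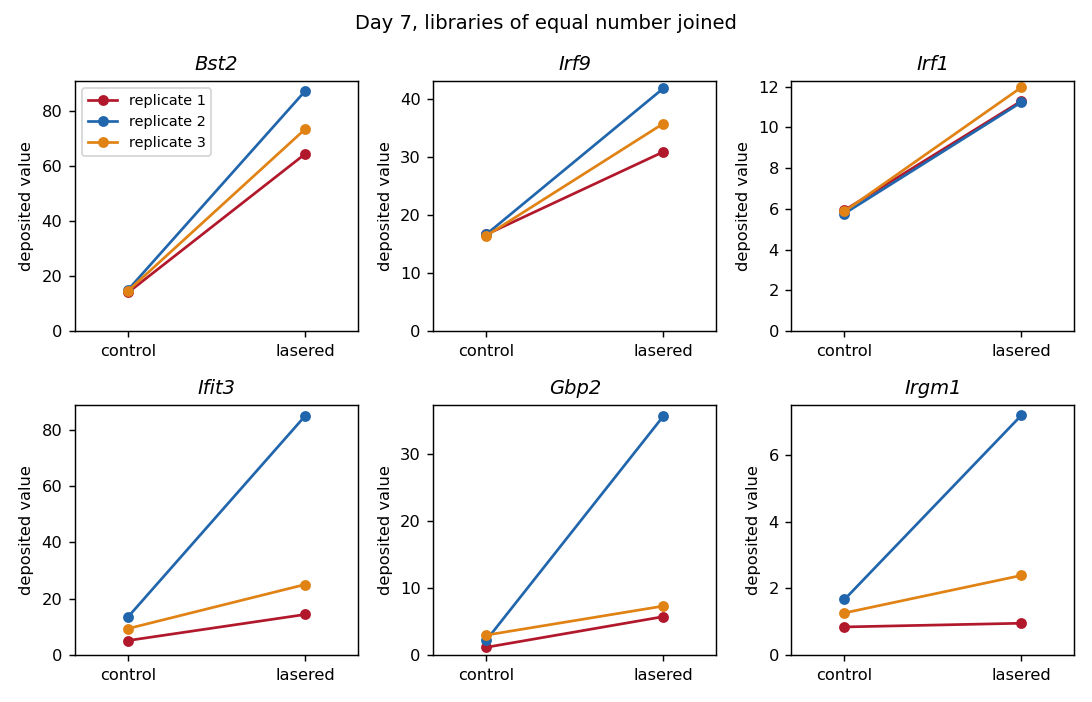
Deposited values of 6 members on day 7 in control and lasered libraries (x axis), with libraries of equal replicate number joined by a line; the y axes start at 0 and differ in scale. In Bst2, Irf9 and Irf1 the highest lasered library is 1.06 to 1.27 times the mean of the other lasered libraries. In Ifit3, Gbp2 and Irgm1 lasered replicate 2 is far above the other lasered libraries.

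Equal replicate numbers went with one another on day 7, so pairs were also read directly. The lasered library exceeded the control of the same number in all 3 pairs in 32 of 39 members. Of the 24 tested members 23 did so, as did 21.4% of all genes tested on day 7. Members without overlap had to be among them. With the replicate number as a block, limma again called Bst2 alone among the members (adjusted p = 0.00450), beside 0.334% of all genes. On day 3, where the numbers were not taken as pairs, the lasered library exceeded its equal-numbered control for all 3 numbers in 38 of 39 members. This follows from their lack of overlap. It held in 35 of 35 tested members, as in 38.1% of all genes tested.

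On day 7 the median ratio of the highest lasered library to the mean of the others was 4.725 for the sensors, near that of the GTPases. It was 1.75 for the OAS genes and 2.24 for the ISG15 system. Dhx58 was at 1.71, 1.89 and 2.64 in controls, against 4.25, 5.84 and 4.80 in lasered retinas, while Ddx58 overlapped, with 0.571, 1.34 and 0.518 against 0.897, 5.55 and 1.42. Oasl2 was at 3.49, 5.00 and 5.99 in controls, against 11.6, 36.8 and 16.3 in lasered retinas (log2 difference 1.81, SE 0.41, limma adjusted p = 0.352). Isg15 was at 4.48, 11.7 and 11.4 in controls, against 16.7, 33.6 and 19.1 in lasered retinas. Control 1 was the lowest control in both of these genes. Usp18 was at 1.33, 3.14 and 2.62 in controls, against 4.83, 14.7 and 6.44 in lasered retinas.

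Of the other effectors, Ifitm3 was at 43.6, 34.9 and 46.9 in controls, against 64.4, 92.1 and 100.1 in lasered retinas (log2 difference 1.00, SE 0.20, limma adjusted p = 0.261). Cmpk2 overlapped, with 6.999, 11.6 and 9.02 in controls and 10.6, 26.3 and 17.5 in lasered retinas. Rtp4, which had the largest difference on day 3, overlapped as well, with 1.41, 0.702 and 1.19 against 1.19, 8.18 and 2.53. Ifi35 was at 11.7, 9.28 and 9.09 in controls, against 15.6, 17.1 and 19.8 in lasered retinas, without overlap, as were Ifi27 and Xaf1. Ifi44 had 0, 4 and 0 reads in controls and 0, 8 and 0 in lasered retinas, which does not allow a comparison at this depth.

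The difference between the days was tested as the interaction of day and laser over the 12 libraries, on 17611 genes of which 34 are members. It called 0 members and 0% of all genes (smallest member adjusted p = 0.382). At an unadjusted p under 0.05, 14 members had a smaller difference on day 7, as had 8.43% of all genes, and a voom fit also called 0 members. Members that passed the filter only through the lasered libraries of day 3 had to have a smaller difference on day 7. Mx2 and Trim30a, both among the 14, are examples, with means in the other groups of 0.239 to 0.749 and of 0.0457 to 0.423. The fitted difference was larger on day 3 in 37 of 39 members and larger on day 7 in Cmpk2 (0.60 on day 3, 0.84 on day 7) and Oas2 (0.21 and 0.22). All 12 libraries enter here, and without lasered replicate 1 of day 3 the order turned in Dhx58, Irf8 and Oasl1. The share of all genes with a larger difference on day 3 was not counted, and the median over the 17611 genes was -0.11 (day 7 minus day 3). The 39 include the 15 members below the filter on day 7, whose differences on that day are compressed by the log2(value + 1) scale. The smallest p was that of Irf9, whose difference was 2.49 smaller on day 7 (day 7 minus day 3: -2.49, SE 0.67, limma adjusted p = 0.382). Irf9 controls were at 3.47 to 4.58 on day 3 and at 16.4 to 16.7 on day 7, and the days were normalized separately. Its lasered values were 168.8, 28.7 and 39.5 on day 3 and 30.9, 41.8 and 35.7 on day 7. Ifit1 (-3.27, SE 0.99) and Rtp4 (-3.51, SE 1.07) had the next smallest p, both with limma adjusted p = 0.396. Ifit1 was below the filter on day 7, with 3 or 4 reads in each control. Its ratio of means on that day was 10.55, and its difference on the log2(value + 1) scale was 1.01. With library weights 10 members passed, beside 5.52% of all genes with a smaller difference on day 7.

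The genes that make or receive the interferon signal were read from lists of 114 further genes with a row. None of 21 interferon genes had a mean of 1 over the 6 libraries of either day. Ifnz, the zeta gene of the type I family, was at 1.39, 1.20 and 0.597 in controls of day 7, against 1.53, 0.489 and 0.199 in lasered retinas, on 3 to 21 reads, with overlap. Ifnb1, the interferon beta gene, was listed at 0 in all 12 libraries, and Ifng, the interferon gamma gene, had 1 read in lasered replicate 1 of day 3 and 0 elsewhere, where up to 3 reads per library cannot be told from 0. Of 6 receptor genes 5 were tested on each day and 0 passed by limma (unadjusted p under 0.05 for 2 on day 3 and 0 on day 7, beside the 20.7% and 3.14% of all genes given above, which hold for the lists that follow as well). Ifnar1 was at 2.53, 2.54 and 3.79 in controls, against 5.52, 3.86 and 3.42 in lasered retinas on day 3, with overlap. Ifnar2 was at 0.810, 0.810 and 0.889 in controls, against 6.13, 1.47 and 2.02 in lasered retinas on day 3, and at 5.81, 6.56 and 5.48 against 8.35, 7.35 and 9.09 on day 7. Ifngr1 was at 23.3, 27.1 and 27.7 against 42.8, 33.8 and 33.6 on day 3, and on day 7 its groups overlapped (log2 difference -0.01, SE 0.20).

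Of 9 signal transducers, all tested on both days, 0 passed on day 3 by limma (4 higher at an unadjusted p under 0.05). On day 7 Stat3 passed as higher. Stat3, a transducer shared by many cytokines, went from 25.1, 31.4 and 26.1 in controls to 57.6, 61.7 and 68.8 in lasered retinas on day 7 (log2 difference 1.16, SE 0.15, limma adjusted p = 0.0444). That call was lost when lasered replicate 1 (adjusted p = 0.146), lasered replicate 3 (0.350) or control replicate 1, 2 or 3 (0.265, 0.114 and 0.317) was left out. It was also lost without a filter (0.0936), after median-of-ratios rescaling (0.112) and in the joint fit (0.345), while the difference stayed between 1.06 and 1.26. On day 3 Stat3 went from 2.88, 2.86 and 2.84 to 25.1, 9.52 and 9.71 (1.89, SE 0.35, adjusted p = 0.0883).

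Of 13 genes of nucleic acid sensing, 7 were tested on day 3 and 5 on day 7, and 0 passed (3 and 2 at an unadjusted p under 0.05). Of 5 feedback genes, 4 and 5 were tested and 0 passed (3 and 2 at an unadjusted p under 0.05). Socs1, which inhibits Janus kinases, was at 0.250, 0.205 and 0.345 in controls, against 0.938, 0.205 and 0.0633 in lasered retinas on day 3, on 1 to 13 reads, and it overlapped on day 7 (log2 difference -0.23, SE 0.35). Of 60 further interferon-induced genes, 45 were tested on day 3 and 25 on day 7, and 0 passed on either day (36 and 12 higher at an unadjusted p under 0.05). Any tested gene of these lists with a control mean under 1 passed the filter through the lasered libraries, so it had to be higher there. Examples on day 3 are Iigp1 (control mean 0.347), Nlrc5 (0.0353) and, among the sensing genes, Zbp1 (0.0291). Groups did not overlap in 53 of the 60 on day 3 and in 25 on day 7, beside the 17.4% and 5.59% of all genes given above. With the replicate number as a block, Lgals3bp, a secreted glycoprotein named here after its values were seen, passed on day 7 (adjusted p = 0.0372, and 0.0771 without the block), at 27.1, 23.6 and 36.6 in controls, against 63.5, 85.9 and 88.8 in lasered retinas. Cxcl10, a chemokine that attracts T cells, had 0, 2 and 0 reads in controls of day 3 and 123, 39 and 15 in lasered retinas. On day 7 it had 0, 5 and 1 reads in controls and 13, 37 and 58 in lasered retinas, with lasered replicate 3 the highest.

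Monocyte, macrophage and microglial marker sums were higher in all lasered retinas of day 3, while neutrophil and lymphocyte sums stood well above the controls in fewer of them. Counts of markers without overlap are to be read beside the 17.4% of all genes above 0. The summed level of 10 monocyte and macrophage markers was 10.2 to 12.9 in controls and 845, 61.6 and 109.7 in lasered 1 to 3, with 9 of 10 markers without overlap. Lyz2 alone was at 661 in lasered 1. Ccr2, the receptor of blood monocytes, was at 0 in the 3 controls and at 8.32, 0.111 and 0.313 in lasered retinas. The sum of 8 neutrophil markers was 2.53 to 3.22 in controls and 1003, 3.22 and 49.1 in lasered retinas, nearly all of it S100a8 (476 in lasered 1) and S100a9 (524), with 1 of 8 markers without overlap. Ly6g, which defines mouse neutrophils, was at 1.34, 0 and 0.391 in lasered retinas and at 0 in controls, and Mpo was at 0 in lasered 1. The 10 microglial markers summed to 35.5 to 36.1 in controls and to 83.9, 71.1 and 80.1 in lasered retinas, with 6 of 10 without overlap. Other microglial markers were lower in lasered 1 than in every control: P2ry12 (2.54, against 5.81 to 10.07), Siglech (0.237, against 0.872 to 2.35) and Gpr34 (2.50, against 3.05 to 3.54). The 12 markers of T, B and NK cells summed to 0.730 to 1.25 in controls and to 8.08, 0.951 and 1.10 in lasered retinas, with 0 of 12 without overlap. Lasered replicate 1 was thus the highest in each of these sums, as it was in the members, and their part in the differences of the members was not tested.

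On day 7, when 5.59% of all genes above 0 had no overlap, the neutrophil sum was 0.365 to 1.27 in controls and 0.576 to 1.18 in lasered retinas, with Ly6g and Elane at 0 in all 6 libraries. The monocyte and macrophage sum was 9.80 to 13.9 in controls and 128.7, 117.7 and 93.2 in lasered 1 to 3, with 5 of 10 markers without overlap, Chil3 at 0 throughout and Ccr2 at 0 except for 0.0454 in lasered replicate 3. Most of that sum was Lyz2 (104.7, 90.9 and 69.6 in lasered 1 to 3), and Ly6c2, Plac8 and F13a1 overlapped between groups. The microglial sum was 59.9 to 65.9 in controls and 113.5, 156.8 and 139.1 in lasered retinas, with 6 of 10 without overlap. The T, B and NK cell sum was 1.48 to 1.78 in controls and 2.16 to 2.65 in lasered retinas, with 2 of 12 without overlap and Cd3g and Ms4a1 at 0 in all 6 libraries. Lasered replicate 2, which led 33 of the 39 members, thus had the highest microglial sum but not the highest monocyte and macrophage sum. The part of these cells in the differences of day 7 was not tested.

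**Figure D5:**
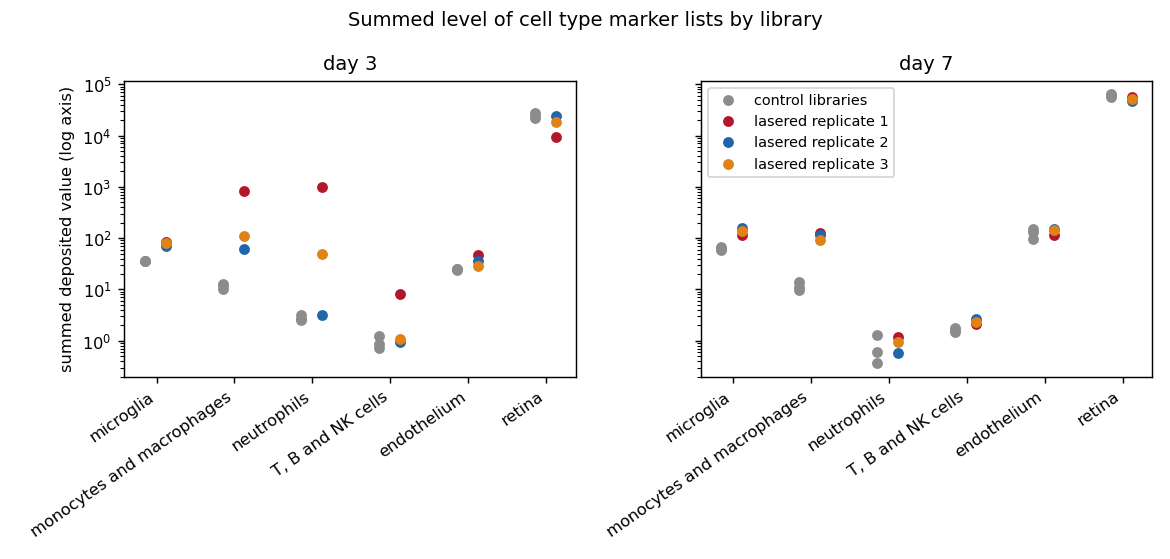
Summed deposited value of cell type marker lists (y axis, log scale) by list (x axis) in each library, day 3 left and day 7 right; grey points are controls and coloured points the lasered replicates. On day 3 the monocyte and macrophage sum reaches 845 and the neutrophil sum 1003 in lasered replicate 1, and on day 7 the neutrophil sum is at most 1.27 in every library.

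Levels in control retinas were set side by side across the days, although the tables were normalized separately, so day and table cannot be told apart. Of the 39 members, 9 were higher in every control of day 7 than in every control of day 3, 13 were lower and 17 overlapped, while 49.4% of all genes with a mean of at least 1 were higher and 32.4% lower. The higher ones were all 5 regulators with Dhx58, Oas3, Isg15 and Bst2, and the lower ones included all 4 IFIT genes. Irf9 was at 3.47 to 4.58 in controls of day 3 and at 16.4 to 16.7 in controls of day 7, whereas Ifit1 was at 4.15 to 6.27 and at 0.114 to 0.192.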

How the data were processed

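Retinal RNA went into directional libraries, per the labels' protocols. The submitters' processing notes name STAR 2.7.0, edgeR 3.28.0 and mm10 but no role for them. For the counter and its use of strand, nothing is stated in the sources used here. The deposited signal, 1 table per day, is called TPM by the authors, although its columns sum to 953049 to 1045986. Value times union exon length gave whole reads within 0.05 for 99.75% to 99.84% of values under 20 reads, after removing a factor with 6 values that cycles with row position.

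Each day was fitted with limma 3.58.1 (R 4.3.3, trended prior, 2-sided) on log2(value + 1), which compresses differences of low genes, restricted to genes whose mean was at least 1, with Benjamini-Hochberg adjustment over all of them at 0.05. The test had been planned for TPM and was not altered. Scripts were tested on simulated data. Tables and figures were made with matplotlib 3.10.9, NumPy 2.4.6 and pandas 2.3.3 (Python 3.11.15). Libraries of equal number on day 7 deviated together (r = 0.485, 0.559 and 0.128), so the numbers were taken to pair these libraries, although lasered 3 correlated more with control 1 (0.205). Values in every library are given for the 3 members of each role with the smallest p on either day, for the smallest p between days, and for members at the edges, and for pathway genes that passed with a fixed few, of which 1 is not reported here. The members and lists were chosen with earlier results of these data known. Coordinates count from 1.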

Additional observations from a re-analysis of the deposited data

How the results depend on the processing

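Settings changed 1 at a time were a pseudocount of 0.1, no filter, median-of-ratios rescaling, quantile normalization, a replicate block, library weights, a joint fit of 12 libraries and leaving out each library; undoing the cyclic factor and a voom fit of recovered reads were chosen after seeing the data. The number of members called on day 3 was 0, became 12 with library weights and 24 in the joint fit, and ranged from 0 to 23 when 1 library was left out (23 without lasered replicate 1, 0 for each other). On day 7 it was 1, became 3 with library weights and 0 in the joint fit, and ranged from 0 to 1 when 1 library was left out. Between days it was 0 and became 10 with library weights. The cause of these changes was not tested. The median difference of tested members was 2.57 on day 3 (1.57 to 3.12 with 1 library left out) and 1.00 on day 7 (0.82 to 1.22, and 0.59 with library weights). Rescaling moved the median of all genes on day 3 from 0.16 to -0.02 (median of ratios) and -0.07 (quantile), and that of the members to 2.44 and 2.30.

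The difference between days turned its sign from -0.57 to 0.16 in Irf8 and from -0.62 to 0.0124 in Oasl1 with library weights. Without lasered replicate 1 of day 3 it also turned in Dhx58 (from -0.71), Irf8 and Oasl1, and without lasered replicate 2 of day 7 in Cmpk2 (from 0.25). With 1 library left out it ranged from -1.13 to 0.0816 in Dhx58, from -0.91 to 0.0235 in Irf8, from -1.09 to 0.0608 in Oasl1 and from -0.0542 to 0.63 in Cmpk2; the cause was not tested. Over all genes, day 3 gave 25 calls, and 20 with the pseudocount of 0.1, 0 without a filter, 14 and 12 after the rescalings, 0 with the block, 369 with weights, 1139 in the joint fit, 13 with voom, 18 with the factor undone and 0 to 315 with 1 library left out. Day 7 gave 38, and 13 without a filter, 24 after median-of-ratios rescaling, 53 with the block, 114 with weights, 25 in the joint fit, 18 with voom and 0 to 41 with 1 library left out. Between days there were 0 calls, 28 without a filter and 1119 with weights.

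On day 3 the replicate block called 0 members, as the fit without it did; correlations of equal-numbered libraries were 0.041, 0.016 and 0.077, each library correlating best with its own number, and the numbers were not taken as pairs. On day 7 the replicate block left the count at 1 with Bst2 as the member called. Among pathway genes it added Lgals3bp. Reads limit the lowest members: 4 on day 3 and 15 on day 7 were too low to test.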
